A study of Mus musculus with 23 samples.

Results

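The cyclins and cyclin-dependent kinases of the G1, S and G2/M phases were followed along the mouse skeletal muscle lineage. The members were the array rows named Ccnd1, Ccnd2, Ccnd3, Ccne1, Ccne2, Ccna2, Ccnb1, Cdk2, Cdk4 or Cdk6. These are 10 of 36095 gene names, measured by 16 of 55681 probes on 1-colour Agilent mouse arrays with probes of 60 bases. RNA came from the embryonic stem cell lines cGR8 (129Sv, male), RD1 (129X1/SvJ, male) and E14tg2 (129/Ola), from male C57BL/6J primary myoblasts at passage 0, and from such myoblasts proliferating at passages 8 to 10, all myoblasts grown on collagen with serum and bFGF. For E14tg2, 2 arrays were averaged into 1 sample. It also came from male C57BL/6J myotubes kept for 1, 2 or 4 days in differentiation medium with horse serum on Matrigel, and from male quadriceps muscle. The quadriceps were 1 of C57BL/6J and 2 of a mixed 129Sv and C57BL/6J background. Each of these 7 groups held 3 samples, and no age is given. A single NOD/ShiLtj muscle sample was kept apart. Each stem cell sample is another line, and strain differs with cell type between stem cells and myoblasts, so that these cannot be told apart there.

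Progress through the cell cycle is driven by kinases that act only when bound to a cyclin. D-type cyclins, which respond to growth factors, pair with Cdk4 and Cdk6 and begin to inactivate the retinoblastoma protein, releasing E2F factors. Cyclin E with Cdk2 then starts S phase, cyclin A with Cdk2 carries it on, and cyclin B with Cdk1 drives mitosis. Myoblasts leave this cycle for good when they differentiate in serum-poor medium, and cyclin D3 is known for remaining in differentiating muscle cells.

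Levels are log2 signal minus the array's 75th percentile, so 0 is the brightness that 3 in 4 spots stay below. Levels are compared within a probe only. A gene was read from its brightest probe, and it was called where limma's moderated test gave a Benjamini-Hochberg adjusted p under 0.05, over all probes tested, with a change of at least 2-fold. Groups were tested where all samples of at least 1 of them were well above background.

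The array reads each gene through short probes, and 4 are shown because decreases of Ccnb1 and Cdk4 were read by probes at different places in each gene, and because Ccnd2 rests on a single probe. They are given as deposited, on mouse build mm9, with no part marked. The 2 Ccnb1 probes lie at chr13:101551224-101551283 and chr13:101553449-101553508, the Ccnd2 probe at chr6:127098696-127098755, all on the minus strand, and the Cdk4 probe at chr10:126503162-126503221 on the plus strand.
Ccnb1 first probe: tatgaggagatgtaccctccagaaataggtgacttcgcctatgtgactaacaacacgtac
Ccnb1 second probe: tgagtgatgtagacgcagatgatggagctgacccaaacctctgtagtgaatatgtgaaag
Ccnd2 probe: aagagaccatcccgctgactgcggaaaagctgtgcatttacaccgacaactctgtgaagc
Cdk4 probe: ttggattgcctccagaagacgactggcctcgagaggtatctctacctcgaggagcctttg
The brightest Ccnb1 probe lies at chr13:101548722-101548781 and the brightest Cdk4 probe at chr10:126504279-126504338. All 3 Ccnb1 probes are listed with 1 further model transcript each. Whether it comes from Ccnb1 or from another place in the genome was not looked up, and its signal cannot be told apart.

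RefSeq promoters of build GRCm38.p6 were at hand for 6 of the 10 members, as 7 windows of 250 bases before a start. The windows were searched on both strands for 4 E2F sites (TTTCCCGC, TTTGGCGC, TTTCGCGC and TTTGGCGG), the cell cycle homology region (TTTGAA or TTCGAA), the CCAAT box and the E box CAGCTG, and no match of one kind overlapped a match of another. Ccnb1, which had the largest decrease among the members on day 2, and Cdk2, which was called on none of them, are shown at chr13:100786487-100786736 and chr10:128705052-128705301, both on the minus strand, with the matches in capitals.
Ccnb1 promoter: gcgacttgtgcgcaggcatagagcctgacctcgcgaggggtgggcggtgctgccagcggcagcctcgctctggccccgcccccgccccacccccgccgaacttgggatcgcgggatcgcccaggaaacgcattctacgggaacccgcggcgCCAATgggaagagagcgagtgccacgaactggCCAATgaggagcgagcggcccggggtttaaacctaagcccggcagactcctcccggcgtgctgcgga
Cdk2 promoter: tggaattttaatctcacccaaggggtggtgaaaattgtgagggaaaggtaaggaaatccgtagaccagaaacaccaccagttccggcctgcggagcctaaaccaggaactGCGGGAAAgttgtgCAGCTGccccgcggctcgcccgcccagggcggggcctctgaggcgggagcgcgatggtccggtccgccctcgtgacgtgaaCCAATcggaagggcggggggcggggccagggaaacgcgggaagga
The Ccnb1 window held 2 CCAAT boxes, 99 to 95 and 67 to 63 bases before the start. The Cdk2 window held an E2F site on the reverse strand at 140 to 133 bases, an E box at 126 to 121 and a CCAAT box at 45 to 41. One of the 2 Ccnd3 windows held a CCAAT box, and the windows of Ccne1, Cdk4 and Cdk6 held none of these letters. Of all 32851 RefSeq promoters of this length, 33.8% held a CCAAT box, 1.96% an E2F site, 17.1% a cell cycle homology region and 13% the E box. A match is a run of letters and not a measured binding site.

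The share of spots well above background ran from 39.1% to 60.1% over the arrays. Proliferating myoblast replicate 1 was dim, with 87.7 intensity units at its 75th percentile and 208 to 765 on every other array. Proliferating myoblasts had the widest spread, with a median SD over probes of 0.75 against 0.29 to 0.56 in the other groups, and array weights gave replicate 1 a weight of 0.103. Stem cells were well above background for all 4 stem cell markers, of which Nanog was so in every other group too. The mean level of Nanog was lowest in stem cells, at -2.13 against -0.90 to 1.36 in the other groups. Myod1, Pax7, Cdh15 and Des were well above background in all samples of the myoblast and myotube groups, while Myf5 was above background in none. The same genes were so in all quadriceps samples, and Cdh15 and Des also in all stem cell samples. All 5 myotube markers were already well above background in every proliferating myoblast sample. Quadriceps also held all 5 fibroblast, 4 endothelial, 3 adipocyte and 3 smooth muscle markers, all in every sample. Of the 5 fibroblast markers, Pdgfra, Lum and Dpt were above background in no myotube sample, while Col1a1 was so in all of them and Dcn in 3, 2 and 2 of 3 on days 1, 2 and 4. Pdgfra, Col1a1, Dcn and Lum were so in all passage 0 samples, whereas only Dcn was so in all proliferating samples. The leukocyte markers Ptprc and Cd68 were so in all passage 0 samples, and in 0 and 1 of 3 proliferating samples. The part of such cells in comparisons with passage 0 myoblasts was not tested. The number of arrays limits the precision of all values.

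**Figure D1:**
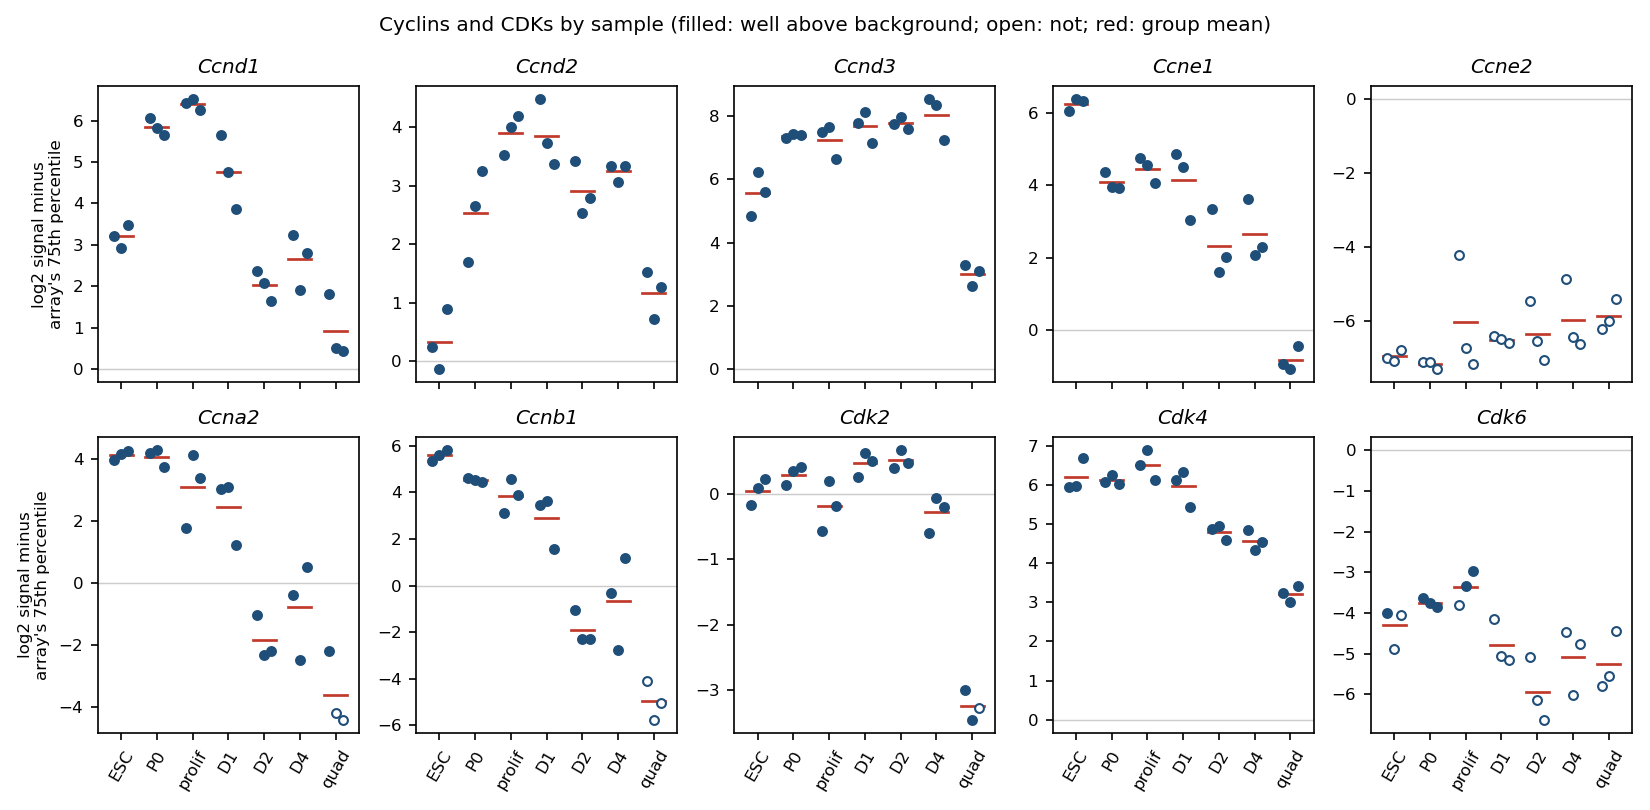
Level of each member's brightest probe in every sample (y axis: log2 signal minus the array's 75th percentile), from stem cells (ESC) through passage 0 (P0) and proliferating (prolif) myoblasts and myotubes of days 1, 2 and 4 (D1, D2, D4) to quadriceps (quad). Filled points were well above background, open points were not, and red lines are means of 3 samples. Ccnd1, Ccna2, Ccnb1 and Cdk4 are lower on days 2 and 4 than in proliferating myoblasts, Ccnd3 is not, and Ccne2 is open throughout.

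Over the days of differentiation the S and M phase cyclins Ccna2 and Ccnb1, cyclin E1, cyclin D1 and Cdk4 fell, whereas Ccnd2, Ccnd3 and Cdk2 were not called on any day with all samples and the settings above. On day 1 only Ccnd1 was called lower, 1 of 8 members tested, where 9.73% of all tested probes were called, 6.18% higher and 3.55% lower. On day 2, 5 of 8 were called lower, against 25.5% of all probes called, 15.4% higher and 10.1% lower. On day 4 the same count of 5 of 8 was lower, against 25.6% of all probes called, 14.9% higher and 10.6% lower. The median log2 change of the members tested was -0.42 on day 1, -1.92 on day 2 and -1.86 on day 4, where the median of all probes tested was -0.04, 0.10 and 0.03. No member was called higher in limma. At an unadjusted p under 0.05, 1 was higher on day 1, 1 on day 2 and 0 on day 4. In RNA from whole cultures, fewer cycling cells and less RNA per cell cannot be told apart. The myotube comparisons share the proliferating myoblast samples.

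Ccnd1 encodes cyclin D1, the D-type cyclin most closely tied to growth factor signalling. Its levels were 6.42, 6.51 and 6.26 in proliferating myoblasts, 5.65, 4.76 and 3.88 on day 1, 2.36, 2.07 and 1.64 on day 2, and 3.24, 1.90 and 2.80 on day 4. Every sample of each day lay below every proliferating sample, and days 1 and 2 did not overlap. On day 1 it was 3.11-fold lower than in proliferating myoblasts (log2 change -1.64, 95% interval -2.57 to -0.70, adjusted p = 0.024 in limma), on day 2 20.8-fold lower (adjusted p = 2.3e-06) and on day 4 13.5-fold lower (adjusted p = 1e-05). The day 1 call was lost under 6 of 16 alternative settings, with adjusted p from 0.0085 to 0.18 over them. These included leaving out proliferating replicate 2 (0.056), day 1 replicate 2 (0.064) or day 1 replicate 3 (0.15). Day 2 was 6.68-fold below day 1 (adjusted p = 0.0018), and the difference of day 4 from day 2 was 0.62 (95% interval -0.31 to 1.56, adjusted p = 0.79). Within the 3 slides, which each hold 1 sample of both groups, the day 2 change lay between -4.78 and -4.16.

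Ccna2, cyclin A2 of S phase and early mitosis, stood at 1.80, 4.13 and 3.41 in proliferating myoblasts and at 3.04, 3.11 and 1.23 on day 1. It stood at -1.01, -2.30 and -2.18 on day 2 and at -0.37, -2.49 and 0.53 on day 4. Days 2 and 4 did not overlap with proliferating myoblasts, and day 1 overlapped with them. Ccna2 was 30.8-fold lower on day 2 (adjusted p = 9.4e-05 in limma) and 14.9-fold lower on day 4 (adjusted p = 0.00078) than in proliferating myoblasts. On day 1 the log2 difference was -0.66 (95% interval -2.24 to 0.93, adjusted p = 0.68), and day 2 was 19.6-fold below day 1 (adjusted p = 0.0033). Without day 1 replicate 3 this log2 change was -4.91 in place of -4.29, and with the number in the titles as a replicate block the adjusted p was 0.054. Without proliferating replicate 1, the dim array on which Ccna2 was lowest, the folds were 48.6 on day 2 and 23.4 on day 4. Without day 4 replicate 2 the day 4 fold was 8.20, and without day 4 replicate 3 it was 23.4.

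Ccnb1, cyclin B1, the partner of Cdk1 at entry into mitosis, followed the same order of groups. It stood at 3.12, 4.58 and 3.87 in proliferating myoblasts, 3.44, 3.64 and 1.55 on day 1, -1.04, -2.31 and -2.30 on day 2 and -0.33, -2.77 and 1.17 on day 4. Again days 2 and 4 did not overlap with proliferating myoblasts, and day 1 did. It was 53.5-fold lower on day 2 (adjusted p = 2.3e-05 in limma) and 22.6-fold lower on day 4 (adjusted p = 0.00023) than in proliferating myoblasts, and 27.1-fold lower on day 2 than on day 1 (adjusted p = 0.0015). The log2 difference of day 1 from proliferating myoblasts was -0.98 (95% interval -2.57 to 0.61, adjusted p = 0.49). The day 4 fold was 10.8 without day 4 replicate 2 and 42.4 without day 4 replicate 3, and the day 2 fold against day 1 was 42.9 without day 1 replicate 3. Both printed Ccnb1 probes were above background in no day 2 sample, so that the first was at least 34.8-fold and the second at least 38.0-fold lower on day 2 than in proliferating myoblasts (adjusted p = 6.4e-06 and 1.1e-05).

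**Figure D2:**
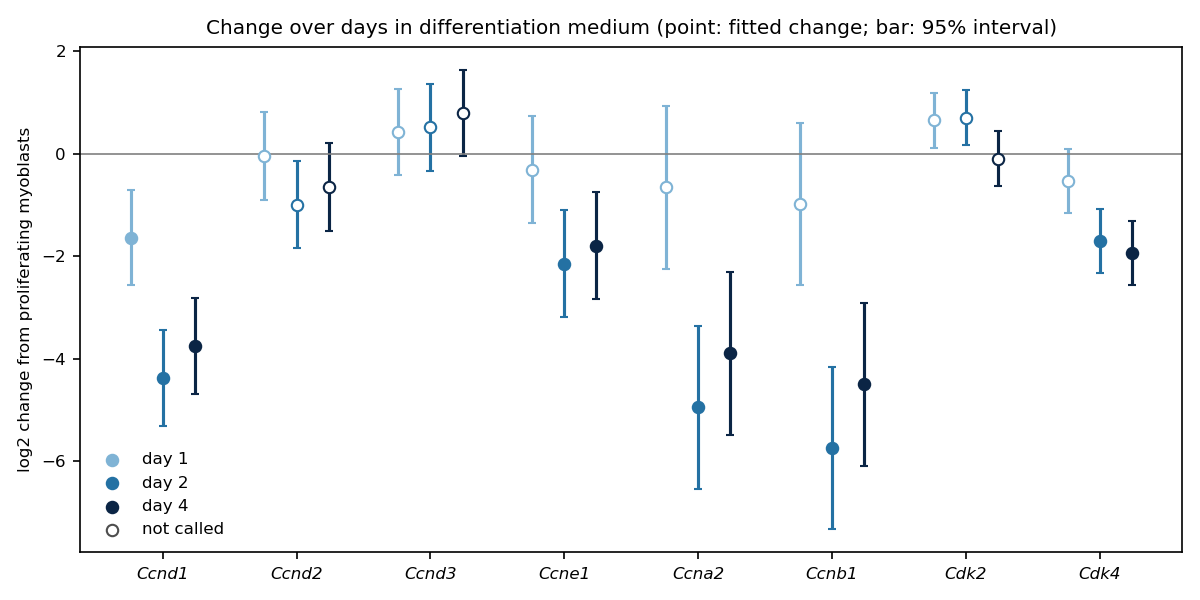
Log2 change of the 8 members tested on days 1, 2 and 4 from proliferating myoblasts (y axis), with 95% intervals of the fit as bars and filled points where the change was called. Only Ccnd1 is filled on day 1, and Ccnd1, Ccne1, Ccna2, Ccnb1 and Cdk4 are filled on days 2 and 4.

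Ccne1 encodes cyclin E1, which binds Cdk2 at the start of S phase. Its levels were 4.75, 4.57 and 4.05 in proliferating myoblasts, 4.87, 4.51 and 3.05 on day 1, 3.34, 1.59 and 2.01 on day 2 and 3.61, 2.08 and 2.29 on day 4. All day 2 and day 4 samples were below all proliferating samples. Ccne1 was 4.41-fold lower on day 2 (adjusted p = 0.0032 in limma) and 3.47-fold lower on day 4 (adjusted p = 0.011). The day 4 call was lost without day 4 replicate 2 (adjusted p = 0.059) and in a fit of the 2 groups alone (0.062). Against day 1 the day 2 change of -1.83 was not called with the brightest probe (adjusted p = 0.052), while the other Ccne1 probe was 4.83-fold lower (adjusted p = 0.022). Ccne2, cyclin E2, was above background in no sample of any group, so the array gives no level for it.

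Cdk4 is the kinase of the D-type cyclins. It stood at 6.50, 6.89 and 6.13 in proliferating myoblasts, 6.14, 6.34 and 5.45 on day 1, 4.87, 4.96 and 4.60 on day 2 and 4.84, 4.35 and 4.55 on day 4. Its samples of days 2 and 4 were all below those of day 1 and of proliferating myoblasts. Cdk4 was 3.24-fold lower on day 2 (adjusted p = 0.00032 in limma) and 3.81-fold lower on day 4 (adjusted p = 9.8e-05) than in proliferating myoblasts. All 3 Cdk4 probes were called lower on both days, with log2 changes of -1.57 to -1.74 on day 2 and -1.88 to -2.06 on day 4. Day 2 was 2.24-fold below day 1 (adjusted p = 0.037), a call that 8 of 16 alternatives lost (adjusted p 0.00058 to 0.19) and that 1 of the 3 probes did not reach (0.083). Those 8 included leaving out day 1 replicate 1 (0.17) or replicate 2 (0.19) and day 2 replicate 1 (0.1), replicate 2 (0.075) or replicate 3 (0.16).

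**Figure D3:**
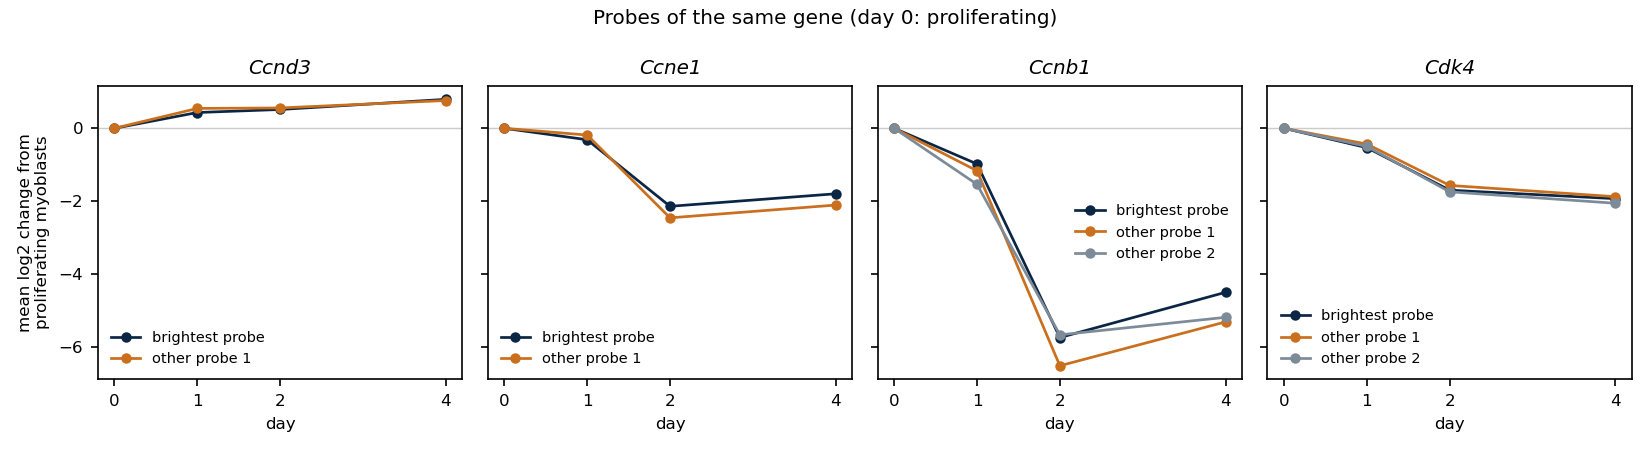
Mean log2 change from proliferating myoblasts (y axis) on days 1, 2 and 4 (x axis) for each probe of the 4 members with several probes. The 3 Cdk4 probes lie at -1.57 to -1.74 on day 2, and the 3 Ccnb1 probes at -5.67 to -6.51, where those other than the brightest were not well above background on that day.

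The other two D-type cyclins and Cdk2 did not pass the test on any day. Ccnd3, cyclin D3, stood at 7.49, 7.64 and 6.64 in proliferating myoblasts, 7.78, 8.13 and 7.16 on day 1, 7.75, 7.97 and 7.60 on day 2 and 8.53, 8.36 and 7.26 on day 4. The groups overlapped, and the log2 differences from proliferating myoblasts were 0.43, 0.52 and 0.79 on days 1, 2 and 4 (adjusted p = 0.58, 0.38 and 0.16 in limma). The 95% interval on day 4 ran from -0.05 to 1.64, and the second Ccnd3 probe gave 0.76. Without day 4 replicate 3 Ccnd3 was called higher on day 4, by 1.19 (adjusted p = 0.035). Ccnd2, cyclin D2, stood at 3.52, 4.00 and 4.19 in proliferating myoblasts and 4.47, 3.72 and 3.38 on day 1. It stood at 3.42, 2.53 and 2.79 on day 2 and 3.33, 3.07 and 3.34 on day 4, all of them below the proliferating samples. Its log2 difference was -0.04 on day 1, -0.99 on day 2 (95% interval -1.85 to -0.13, adjusted p = 0.079) and -0.65 on day 4. On day 2 it was called lower with the authors' values (adjusted p = 0.029) and with quantile normalization (0.038). Cdk2, the kinase of cyclins E and A, stood at -0.57, 0.21 and -0.19 in proliferating myoblasts, 0.27, 0.63 and 0.51 on day 1, 0.41, 0.67 and 0.47 on day 2 and -0.59, -0.06 and -0.20 on day 4. On day 2 it was higher in all 3 samples, by 0.70 on the log2 scale (adjusted p = 0.046), which is under the 2-fold required. On day 4 the difference was -0.10 (95% interval -0.63 to 0.44).

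Cdk6, the second kinase of the D-type cyclins, was dim on these arrays. It was above background in 1 stem cell sample, all 3 passage 0 and 2 of 3 proliferating myoblast samples, and in none of the myotube or quadriceps samples. Its level was -3.81, -3.33 and -2.96 in proliferating myoblasts, of which the first was not above background. All samples of days 1, 2 and 4 lay lower, but none of these was above background. No fold is given and no test was made, since neither group was measured on all arrays. Levels below background depend on how bright the array is. Ccne2, above background in no sample, stood at -4.22 on the dim proliferating array and at -6.73 and -7.15 on the others. Without proliferating replicate 1, Cdk6 passed the filter only through the other proliferating samples. It was then called lower on day 2 (adjusted p = 7e-04 in limma) and day 4 (0.01). No myotube sample was above background, so these calls are not counted as a decrease.

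The share of the day 4 log2 change reached by days 1 and 2 is given as a description of the means. Ccnd1 had covered 43.6% of its day 4 log2 change by day 1, Cdk4 27.5%, Ccnb1 21.7%, Ccne1 17.5% and Ccna2 16.8%. By day 2 Cdk4 had covered 87.9%, and Ccnd1, Ccne1, Ccna2 and Ccnb1 had gone beyond their day 4 change, at 117% to 128%. Leaving out single samples gave day 1 shares of 31.8% to 55.4% for Ccnd1, 13.8% to 37% for Cdk4, 7.02% to 30.2% for Ccnb1, -13% to 37.8% for Ccne1 and 1.07% to 28.8% for Ccna2. Without day 1 replicate 3 the shares of Ccna2 and Ccne1 were 1.07% and -13%, so the day 1 shares give no order among Cdk4, Ccnb1, Ccne1 and Ccna2. Ccnd1 had the largest day 1 share of these genes whichever single sample was left out, such as 31.8% against 13.8% for Cdk4 without day 1 replicate 3. The day 2 share of Ccne1 was 99% without day 2 replicate 2 and 94.3% without day 4 replicate 1. Whether the shares differ between genes was not tested. Between days 4 and 2 limma called no member, where 0.421% of all probes were called, 0.289% higher and 0.132% lower, and 1 member, Cdk2, had an unadjusted p under 0.05. On day 2 against day 1, 4 of 8 members (Ccnd1, Ccna2, Ccnb1 and Cdk4) were lower, where 3.21% of all probes were called, 0.852% higher and 2.36% lower. With the replicate block 2 of these calls remained, Ccnd1 (adjusted p = 0.029 in limma) and Ccnb1 (0.046). On day 4 against day 1 the same 4 members were lower, where 8.77% were called, 4.26% higher and 4.51% lower. There Ccne1 was not called with its brightest probe (adjusted p = 0.071 in limma), while its other probe was 3.79-fold lower (0.027).

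Titles of proliferating myoblasts and myotubes share the numbers 21, 26 and 28, and samples of equal number were correlated after removal of group means. All 3 pairs had r over 0.1 between days 1 and 4 and between proliferating myoblasts and day 2. Between proliferating myoblasts and day 1 the values ran from -0.022 to 0.211. In every other pair of groups all values were positive, with 0.035 as the lowest. On days 1 and 4 samples of equal number also share a slide, so that number and slide cannot be told apart for that pair. With the number as a block, 2 of the 4 members kept their call on day 4 against day 1, Ccnd1 and Cdk4 (adjusted p = 0.017 and 0.024 in limma). Ccna2 (9.44-fold, adjusted p = 0.011 without the block) and Ccnb1 (11.5-fold, 0.0064 without it) had adjusted p = 0.063 and 0.057 with it. The Ccna2 call was also lost without day 1 replicate 1 (adjusted p = 0.059), day 1 replicate 2 (0.059) or day 4 replicate 2 (0.069, 5.21-fold). Its fold was 14.4 without day 1 replicate 3 and 14.9 without day 4 replicate 3. For Ccnb1 the fold was 5.50 without day 4 replicate 2, 18.2 without day 1 replicate 3 and 21.5 without day 4 replicate 3. Each number held extremes among these genes. On day 1 the sample numbered 28 had the lowest Ccnd1, Ccne1, Ccna2, Ccnb1 and Cdk4 of the 3 samples. On day 4 the sample numbered 26 had the lowest of all these genes. There the sample numbered 28 had the highest Ccna2 and Ccnb1, and that numbered 21 the highest Ccnd1, Ccne1 and Cdk4. Whether the numbers differ was not tested. Between days 4 and 1 the log2 difference of Ccnb1 was -3.77, -6.41 and -0.38 in the samples numbered 21, 26 and 28, and that of Ccnd1 was -2.40, -2.87 and -1.08.

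**Figure D4:**
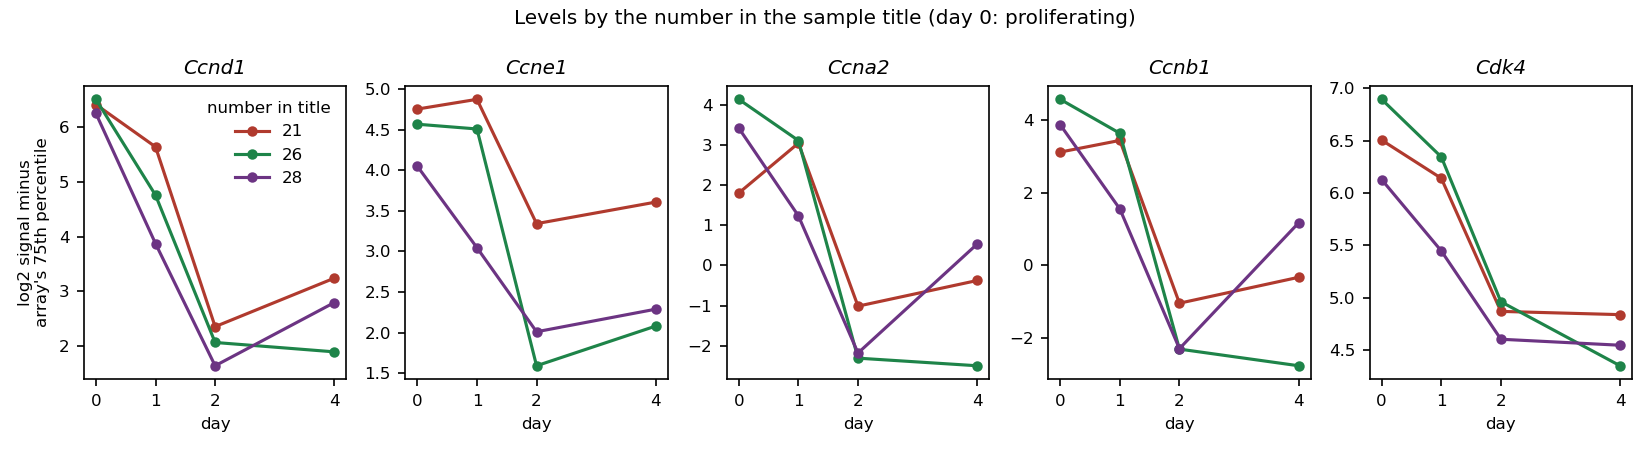
Level of 5 members (y axis, log2 signal minus the array's 75th percentile) in single samples of proliferating myoblasts (day 0) and of days 1, 2 and 4 (x axis), with lines joining samples that share a number in their titles. Number 28 is lowest on day 1 in all 5 panels and highest on day 4 for Ccna2 and Ccnb1.

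Other genes of the cycle moved over the same days. In a list of 20 S phase and mitosis markers, 5 of 19 tested genes fell on day 1 and 19 of 19 fell on days 2 and 4, with medians of -1.24, -4.98 and -4.04. Of all probes tested, 3.55%, 10.1% and 10.6% were called lower on days 1, 2 and 4, and 6.18%, 15.4% and 14.9% higher. Between days 4 and 2 only 15 of the list were tested. The others tested on days 2 and 4 passed the filter only through proliferating myoblasts, so those medians include values not well above background. The markers that fell on day 1 were Cdt1 (6.56-fold, adjusted p = 0.00015 in limma) and Cdc6 (5.63-fold, adjusted p = 0.016), which load the replicative helicase, and the helicase genes Mcm3, Mcm5 and Mcm7. Mki67, the proliferation antigen, was 31.6-fold lower on day 2 (adjusted p = 0.00044), and on day 1 its difference was -0.50 (adjusted p = 0.80). Pcna, the sliding clamp of DNA polymerase, was 3.65-fold lower on day 2 (adjusted p = 0.0014). In the list of other cell cycle cyclins, Cdk1 and regulators of Cdk1 and Cdk2, 4 of 17 fell on day 1, and 10 fell and 2 rose on days 2 and 4. Here 15 were tested between days 4 and 2, so some of the 17 passed the filter only through proliferating myoblasts. Cdc20, the activator of the anaphase-promoting complex, fell by 5.32 on the log2 scale on day 2 (adjusted p = 6.3e-06), and Cdc25c, the phosphatase that switches on Cdk1, at least 16.3-fold lower (adjusted p = 6.8e-06). Fbxw7, whose product marks cyclin E for degradation, rose by 1.12 on day 2 and 2.06 on day 4 on the log2 scale (adjusted p = 0.0038 and 2.1e-05). Cdk1 itself stood at 0.63 in proliferating myoblasts, -1.22 on day 1, -3.51 on day 2 and -3.67 on day 4, and was not called (adjusted p = 0.61, 0.095 and 0.083).

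Of 8 CDK inhibitors, 2 rose on day 1, 4 rose and 1 fell on day 2, and 2 rose and 1 fell on day 4. Cdkn1c, p57, was 57.3-fold higher on day 1 (adjusted p = 0.00012 in limma), 61.3-fold on day 2 and 6.14-fold on day 4 than in proliferating myoblasts. Cdkn1a, p21, was 2.94-fold higher on day 1 (adjusted p = 0.049), 4.19-fold on day 2 and 4.58-fold on day 4. The gene that fell was Cdkn3, a phosphatase gene that is itself expressed in dividing cells, 16.1-fold lower on day 2 (adjusted p = 3.9e-05). In the Rb and E2F list 2 of 16 rose and 1 fell on day 1, 3 of 15 rose and 5 fell on day 2, and 4 of 14 rose and 5 fell on day 4. Rb1, the retinoblastoma gene, was higher by 2.60, 2.93 and 1.60 on days 1, 2 and 4 (log2, adjusted p = 0.0029, 0.0003 and 0.024), and E2f2 by 2.72, 2.76 and 2.61. Mybl2, which acts with E2F in late cycle transcription, was 33.2-fold lower on day 2 (adjusted p = 7.5e-07). Of 23 tested cyclins and CDKs with roles mainly in transcription or other processes, 1 rose on day 1 and 3 rose and 1 fell on day 2, and on day 4 1 of 20 rose and 2 fell. Of all probes tested, 6.18%, 15.4% and 14.9% were called higher on days 1, 2 and 4, and 3.55%, 10.1% and 10.6% lower. No count of this last list lay above these shares, and none is read as a trait of its genes. All 8 differentiation genes were higher on days 1, 2 and 4, among them Myog, which drives terminal differentiation, at 7.34-fold on day 1 (adjusted p = 0.0019).

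**Figure D5:**
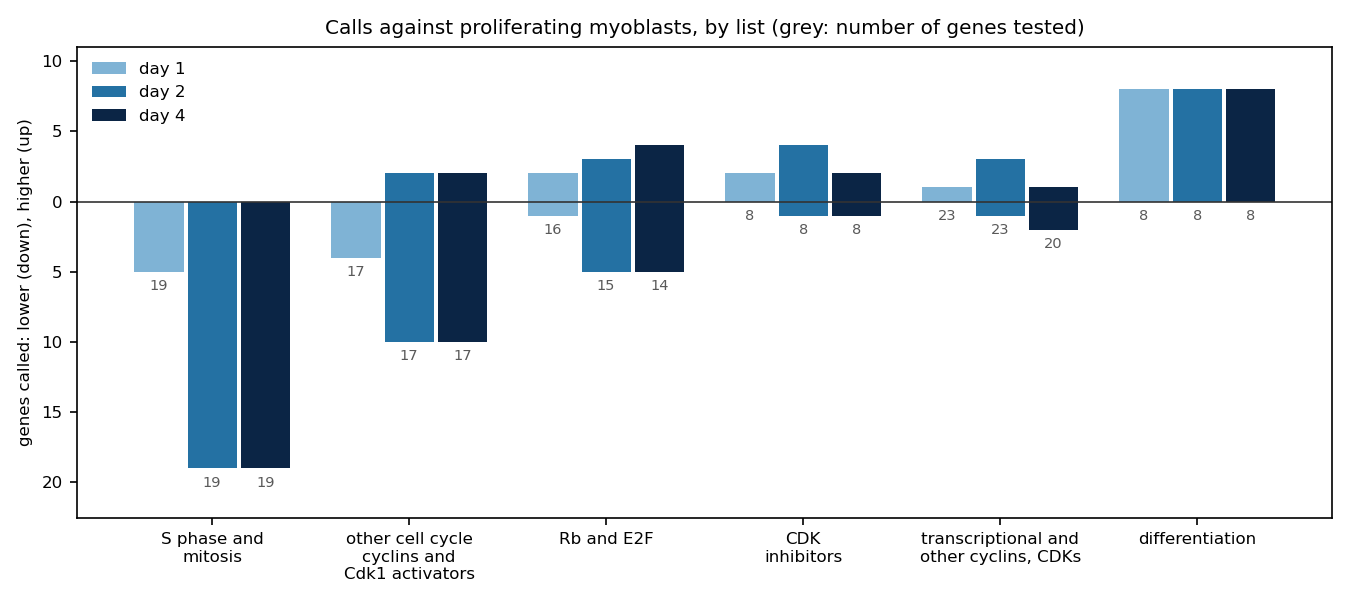
Number of genes called higher (upward bars) or lower (downward bars) on days 1, 2 and 4 against proliferating myoblasts in each list, with the number tested in grey. The S phase and mitosis list has 5 of 19 lower on day 1 and 19 of 19 on days 2 and 4, while all 8 differentiation genes are higher on each day. Some of these 19 passed the filter on days 2 and 4 only through proliferating myoblasts.

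Between myoblasts and stem cells the D-type cyclins and Ccne1 were called, while Ccne2 was not above background. Passage 0 myoblasts had 3 of 9 tested members higher and 1 lower, where 38.8% of all probes were called, 17.8% higher and 21% lower. Proliferating myoblasts had 3 of 8 higher and 1 lower, where 36.3% were called, 15.3% higher and 21% lower. Counted in either direction, the called members lie near the share of all probes, and neither count is read as a trait of these members. In both comparisons, Ccnd1, Ccnd2 and Ccnd3 were the higher ones and Ccne1 the lower one. Ccnd1 was at 6.06, 5.83 and 5.65 in passage 0 myoblasts, against 3.21, 2.92 and 3.49 in stem cells, and Ccnd2 at 1.70, 2.66 and 3.26 against 0.23, -0.13 and 0.89. Neither overlapped. Ccnd1 was 6.23-fold higher in passage 0 (adjusted p = 9.5e-05 in limma) and 9.13-fold higher in proliferating myoblasts (adjusted p = 1.5e-05). Ccnd2 was 4.62-fold (adjusted p = 0.00024) and 11.9-fold higher (adjusted p = 1.6e-06), and Ccnd3 3.56-fold (adjusted p = 0.0011) and 3.26-fold higher (adjusted p = 0.0023). Ccne1 was at 4.37, 3.95 and 3.93 in passage 0 and 4.75, 4.57 and 4.05 in proliferating myoblasts, against 6.03, 6.37 and 6.33 in stem cells. It was 4.47-fold (adjusted p = 0.0017) and 3.46-fold lower (adjusted p = 0.0075) without overlap. All 4 calls held in each of 16 alternatives of both comparisons.

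Ccna2, Cdk2 and Cdk4 were not called between myoblasts and stem cells. Cdk6 was not called in passage 0 (adjusted p = 0.38 in limma) and was not tested in proliferating myoblasts. The log2 difference of Cdk4 was -0.08 in passage 0 (95% interval -0.70 to 0.54) and 0.31 in proliferating myoblasts (95% interval -0.32 to 0.93), and that of Cdk2 was 0.25 and -0.24. Ccnb1 was lower in all myoblast samples than in all stem cell samples, by 1.06 and 1.73 on the log2 scale with the brightest probe (adjusted p = 0.29 and 0.078 in limma). In proliferating myoblasts it was called lower with the authors' values (0.015), normexp background correction (0.013) and the 2 groups alone (0.029). In passage 0 Ccnb1 was called lower in a fit of the 2 groups alone (0.0044). Of its other probes only the second printed one was called, 3.76-fold lower in passage 0 (adjusted p = 0.033) and 3.88-fold lower in proliferating myoblasts (adjusted p = 0.032). Between proliferating and passage 0 myoblasts limma called no member of 9, where 1.25% of all probes were called, 0.531% higher and 0.721% lower. These were 349 probes, but 70 without passage 0 replicate 2 and 2520 without proliferating replicate 3. At an unadjusted p under 0.05, 1 was higher, Ccnd2, by 1.36 (95% interval 0.51 to 2.22, adjusted p = 0.11).

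Quadriceps was lower than day 4 myotubes for every member that could be tested. All 8 were called lower, where 32.1% of all probes were called, 15.8% higher and 16.4% lower. Ccnb1, Ccna2 and Cdk2 were tested only because day 4 samples were above background, and with the filter in both groups 5 were tested and called. Over the 8, the median log2 change was -2.89, against -0.03 for all probes. Ccnd3 was at 3.28, 2.63 and 3.11 in quadriceps, against 8.53, 8.36 and 7.26 on day 4. It was 33.1-fold lower (adjusted p = 3.9e-08 in limma), and its second probe 40.2-fold lower. Cdk2 was at -3.00, -3.45 and -3.27, the last not above background, against -0.59, -0.06 and -0.20 on day 4, and was 7.79-fold lower (adjusted p = 9.3e-08). Ccnd3, Cdk2 and Ccnd2 were the tested members not called over the days in culture. Ccne1 was 11.1-fold lower (adjusted p = 2.7e-05), Ccnd2 4.21-fold (adjusted p = 0.00059), Ccnd1 3.31-fold (adjusted p = 0.005) and Cdk4 2.56-fold (adjusted p = 0.0015), each without overlap. Within slides the Ccnd1 difference ranged from -2.74 to -0.08.

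The mitotic cyclins were near or below background in quadriceps. Ccnb1 was above background in no quadriceps sample and at least 7.51-fold lower than on day 4 (adjusted p = 0.00021 in limma). The bound was 15.7-fold without day 4 replicate 2 and 4.01-fold without day 4 replicate 3. Ccna2 was at -2.20, -4.21 and -4.41 in quadriceps, of which only the first was above background, against -0.37, -2.49 and 0.53 on day 4. The groups overlapped, and it was 7.09-fold lower (adjusted p = 0.0067). That fold was 12.8 without day 4 replicate 2, 4.50 without day 4 replicate 3 and 11.5 without quadriceps replicate 1, and within slides the difference ran from -4.94 to 0.30. Markers of other cell types moved with this comparison. Summed signals relative to the 75th percentile were 223 to 405 in quadriceps and 0.495 to 1.12 on day 4 for fibroblasts, 70.0 to 621 and 0.125 to 0.252 for adipocytes, and 8.73 to 30.6 and 179 to 274 for smooth muscle. The smooth muscle sum is mostly Acta2, with a mean level of 3.59 in quadriceps and 7.84 on day 4, whereas Myh11 and Cnn1 were above background in all quadriceps samples and in no day 4 sample. The sums overlapped for endothelium (12.1 to 18.3 and 4.83 to 15.8), which is mostly Kdr, at mean levels of 3.34 and 3.32. The other endothelial markers had higher means in quadriceps, with Cdh5 at 1.54 and -5.49, Tek at -1.22 and -4.60 and Pecam1 at -0.27 and -2.87. The sums also overlapped for leukocytes (36.9 to 66.7 and 44.4 to 69.8), which is mostly Itgam, at mean levels of 5.21 and 5.61. Csf1r had a higher mean in quadriceps, at 3.49 and 1.85. Ptprc was above background in 1 quadriceps sample and no day 4 sample, and Cd68 in none of either. The part of other cell types in the members' differences was not tested, and strain, tissue and culture differ together here.

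Over the 21 samples, the genes whose brightest probe followed each member most closely among 15387 gene names were named as a description. For Ccnb1 these were Sgo1 (r = 0.996), Cdc20 (0.994) and Birc5 (0.994), and for Ccna2 they were Nusap1 (0.991), Ccnb1 (0.989) and Top2a (0.989). Cdk4 was followed by Cfl1 (0.986), E2f1 (0.973) and Hmgn1 (0.972), and Cdk2 by Fzd3 (0.982), Psat1 (0.970) and E2f8 (0.969). Ccnd1 was followed by Smo (0.962), Baiap2 (0.961) and 4930524J08Rik (0.959), Ccnd3 by Lgals3 (0.970), Rhod (0.966) and Tmsb10 (0.962), and Ccne1 by Fanca (0.964), Wasf1 (0.960) and Hnrnpc (0.958). For Ccnd2 the values were lower, with Chst15 (0.922), Magee1 (0.907) and Drp2 (0.903), and for the dim Cdk6 Tnfsf11 (0.897) led, with Neil3 (0.889) and Camkk2 (0.877). Among the members, Cdk4 went with Ccnb1 at r = 0.937 and with Ccnd3 at 0.546, and Ccnd2 with Ccnb1 at 0.091. The 21 samples fall into 7 groups and share array-wide differences in signal, so these values mostly describe group means.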

How the data were processed

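Total RNA was labelled with Cy3 and measured on 23 Agilent 8x60K arrays. Each spot's processed signal intensity was background-subtracted and detrended in Feature Extraction, per the file headers. The mean and background signal intensities and the flags are those the authors deposited. The authors also deposited log2 values, whose columns share a median of 6.72 and, once sorted, differ by at most 0.01. How they were made is not given in the sources used here.

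Of 62976 spots, 59305 were not controls and held 55681 probes. Gene names came from the RefSeq table, matched by accession (26582), symbol (2602) or synonym (492), and 26005 kept the name in the file. The log2 processed signal minus each array's 75th percentile was used, without spots marked as outliers. Spots of a probe were averaged. The limma (3.58.1, R 4.3.3) fit had 7 group means over 21 samples and 14 residual degrees of freedom, and gave 10 comparisons. Calls needed at least 2-fold and 0.05 as the limit of the p adjusted by Benjamini-Hochberg. A fold is a lower bound where a group had no sample above background. It then sets the bright group's mean against, on each array, the higher of the probe's own signal and the lowest signal well above background. Where the labels do not say that samples came from separate cultures or animals, p-values measure only the spread between these samples. Same-numbered samples of proliferating myoblasts and myotubes, after removal of group means, correlated at r from -0.022 to 0.628 over 6 pairs of groups, and 2 of these had all values over 0.1. The numbers come from the titles.

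The members, lists and naming rule were chosen with earlier results of these data known. The text names every member, genes among the 2 called with the largest fold in each direction of a list, Cdk1, Mki67, Pcna and Myog, and the 3 most alike genes of each member. Mcm3, Mcm5 and Mcm7 on day 1 and Rb1 on day 4 were named after their values were seen. Ccnm of the lists was not on the array. The fit was tested on simulated data. Alternatives were normexp background correction (offset 50), quantile normalization, the authors' values, no filter, a filter in both groups, 1 probe per gene, array weights, slide or replicate number as a block, the 2 groups alone, leaving out each sample, and the NOD sample among quadriceps.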

Additional observations from a re-analysis of the deposited data

How the results depend on the processing

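The counts of called members lay between 4 and 5 in passage 0 and in proliferating myoblasts against stem cells, between 5 and 6 on day 2 and 4 and 6 on day 4 against proliferating myoblasts, and stayed at 0 in proliferating against passage 0 myoblasts and in day 4 against day 2, over the alternatives. On day 1 the count was 0 with no filter, with array weights (which give the dim array little weight) and in a fit of the 2 groups alone, and leaving out each sample gave 0 to 1. Day 2 against day 1 gave 2 with the replicate block, where Ccna2 (adjusted p = 0.054) and Cdk4 (0.088) were lost, 3 to 5 without single samples and 6 with array weights. Day 4 against day 1 gave 2 with the replicate block, 0 in a fit of the 2 groups alone, 3 to 5 without single samples and 6 with array weights, which added Ccnd2 and Ccne1 in both comparisons. Ccne1 was also called lower in both with the authors' values, with normexp and with quantile normalization. The replicate block changed no other call of a member. Of 12 samples, 2 correlated best with their own number in every other group. Quadriceps against day 4 gave 5 with the filter in both groups, which leaves Ccna2, Ccnb1 and Cdk2 untested, and 8 without any single sample. Normexp also lost Ccna2 there (adjusted p = 0.085). No called value changed sign. Over all probes, the fit of the 2 groups alone called 437 in place of 2503 on day 1, 3733 in place of 6216 on day 2 and 2664 in place of 5828 on day 4 against proliferating myoblasts, and array weights called 2658 in place of 821 for day 2 against day 1. Without proliferating replicate 1 the share of calls that were higher on day 2 was 49.9% in place of 60.4%. The filter in both groups called 6778 in place of 12141 probes for passage 0 myoblasts and 5473 in place of 10569 for proliferating myoblasts against stem cells, where, for proliferating myoblasts, 60% in place of 42.2% of the calls were higher. Quantile normalization moved the median log2 change of all probes tested to -0.08 in place of -0.27 for passage 0 myoblasts and to -0.17 in place of -0.06 for proliferating myoblasts against stem cells, and to -0.08 in place of 0.13 for proliferating against passage 0 myoblasts. Signal over background limits Ccne2 and Cdk6 throughout and Ccna2, Ccnb1 and Cdk2 in quadriceps.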

Other observations

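In the single NOD/ShiLtj skeletal muscle sample, which has no replicate, Ccnd1 stood at 0.21, Ccnd2 at 0.75, Ccnd3 at 3.27, Ccne1 at -0.59, Cdk2 at -3.04 and Cdk4 at 3.25. Ccna2 was above background at -3.40, while Ccnb1, Ccne2 and Cdk6 were not above background. With this sample among the quadriceps, limma called the same count of 8 members lower than on day 4.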
